A study of Mus musculus with 12 samples.

Results

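The ERK feedback and output genes examined here are 10 transcripts that are widely read as a measure of signalling through the RAF, MEK and ERK kinase cascade: Dusp1, Dusp4, Dusp5, Dusp6, Spry1, Spry2, Spry4, Spred1, Etv4 and Etv5. They were chosen by name as known genes of the pathway, with earlier results of these data known, and each name matched 1 Ensembl gene among the 54752 genes of the count table. All 10 passed the filter on low counts, as did 18434 genes in all. RNA was sequenced from B16F10, an established mouse melanoma cell line grown with 10% serum. The 12 libraries form 4 groups of 3: double knockout (genotype Ep300 and Crebbp knockout), Ep300 knockout, Crebbp knockout, and control (genotype WT). The products of these genes, p300 and CBP, are related acetyltransferases that work as coactivators of transcription, and the comparisons ask how these transcripts differ in cells labelled as knockouts of one or of both. The labels name no clone, pool, guide or culture, so the p-values measure the spread between these libraries, which may be technical.

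Growth factor receptors activate RAS, which starts a relay from RAF to MEK to ERK, and ERK then alters transcription in the nucleus. Among the genes it induces are its own brakes. The Dusp genes encode dual-specificity phosphatases that remove the activating phosphates from MAP kinases, the Sprouty (Spry) and Spred proteins act upstream on RAS and RAF, and Etv4 and Etv5 are ETS transcription factors of the PEA3 group that rise with ERK activity. In melanocytes the cascade is fed by receptors such as KIT, and most human melanomas carry activating mutations in it. Transcript levels do not measure ERK phosphorylation, which was not assayed here.

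Libraries held 64257251 to 85604243 counts. Levels are given as CPM (counts scaled to a library of standard size, after TMM scaling) and changes as log2 fold changes ± SE with edgeR quasi-likelihood p-values adjusted over all 18434 tested genes by Benjamini and Hochberg, called at 0.05. The targeted transcripts only partly followed the labels. Crebbp stood at 63.99 ± 6.13 CPM in double knockout, 80.7 ± 11.9 in Ep300 knockout, 34.5 ± 3.599 in Crebbp knockout, against 64.7 ± 7.00 in control (SD, n = 3 each), and Ep300 at 148 ± 11.1, 85.1 ± 8.80, 104 ± 12.4 and 94.4 ± 7.72 CPM in the same order. Among these, only Crebbp in Crebbp knockout was called lower than control, at -0.91 ± 0.12 (adjusted p = 0.000527). Ep300 was called higher in double knockout, at 0.65 ± 0.10 (adjusted p = 7.33e-05). Whether an exon was removed cannot be read from totals per gene. Group names therefore stand for libraries labelled so. The defining melanocyte markers were present in every group (7 of 7 above 1 CPM) and summed to 6526 to 6694 CPM in double knockout, 14300 to 15020 in Ep300 knockout, 18350 to 19160 in Crebbp knockout, against 19450 to 21400 in control. Among markers of other cell types (epithelium, endothelium, immune cells and fibroblasts), Pdgfra (4.57, 1.82, 2.16 and 1.39 CPM in the same order) and Cd68 (6.18, 3.48, 1.67 and 1.87 CPM) were the ones above 1 CPM in any group, while Krt18 and Adgre1 had no count in any library. The part of the lower melanocyte transcripts in the results below was not tested. In bulk RNA, fewer cells with a transcript and less of it per cell cannot be told apart.

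Upstream sequence is shown here for the 3 members whose promoter windows held any of the 7 motifs searched. They are Dusp1, the gene with the smallest rise in double knockout, Dusp5, the one with the largest, and Spry2, the Sprouty gene with the largest rise. Windows came from RefSeq (GRCm38.p6) and span 250 bases before to 50 after a start site. They matched 7 of the 10 members with 8 windows, since Etv5 has a pair. Dusp4, Etv4 and Spry4 had no window. The printed stretches hold no base that GENCODE annotates as an exon of the gene, but that of Dusp1 lies within the span of a longer Dusp1 transcript that starts farther upstream. They are chr17:26508520-26508722 on the minus strand for Dusp1, chr19:53528895-53529108 on the plus strand for Dusp5 and chr14:105896820-105897069 on the minus strand for Spry2, each 5′ to 3′ along the gene. Capitals mark a cyclic AMP response element in Dusp1, adjoining cores of the serum response element in Dusp5, and a Capicua site in Spry2.
Dusp1: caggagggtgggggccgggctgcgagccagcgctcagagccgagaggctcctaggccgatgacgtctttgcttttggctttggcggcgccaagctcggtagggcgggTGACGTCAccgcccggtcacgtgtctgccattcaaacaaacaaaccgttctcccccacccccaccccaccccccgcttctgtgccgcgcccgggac
Dusp5: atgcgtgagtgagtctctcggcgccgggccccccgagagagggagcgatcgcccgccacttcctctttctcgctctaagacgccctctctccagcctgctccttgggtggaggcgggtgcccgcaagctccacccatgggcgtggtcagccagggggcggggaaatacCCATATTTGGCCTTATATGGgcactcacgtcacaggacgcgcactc
Spry2: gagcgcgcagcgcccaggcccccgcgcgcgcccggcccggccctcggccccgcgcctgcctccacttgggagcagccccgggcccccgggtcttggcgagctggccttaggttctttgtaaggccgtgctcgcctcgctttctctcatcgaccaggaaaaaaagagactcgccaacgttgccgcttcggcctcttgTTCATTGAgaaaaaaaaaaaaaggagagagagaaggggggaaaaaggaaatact
Both strands were searched for 7 motifs, and a palindrome was counted once. The full cyclic AMP response element TGACGTCA, bound by CREB, which recruits CBP and p300, lay at -143 to -136 from the start of Dusp1 and in 1.79% of all 32851 windows. Its shorter core TGACG occurred 3 times in the Dusp1 window, 1 time in that of Dusp5, and in 20.8% of all windows. In Dusp1 the matches at -143 to -139 and -140 to -136 are parts of the full element. The separate match lay at -191 to -187. The serum response element core, bound by SRF, occurred 2 times in the Dusp5 window, at -82 to -73 and -72 to -63, and in 1.63% of all windows. The letters TCAATGAA, recognised by Capicua, a repressor that ERK inactivates, occurred 1 time in the Spry2 window, at -54 to -47, and in 0.749% of all windows. None of the 8 windows held TGAATGAA (1.3% of all windows), the AP-1 site TGACTCA (5.2%) or the ETS site CCGGAAG (8.86%). The windows of Dusp6, Spry1, Spred1 and Etv5 held none of the 7 motifs. For Spred1 and for 1 of the Etv5 windows, the 50 bases after the start were not found in a GENCODE transcript of the gene. Of the genes without a motif, Dusp6 and Etv5 rose and Spry1 and Spred1 fell in double knockout. A match describes these letters and does not show binding, and a link between a motif and a change was not tested.

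In the libraries labelled double knockout every member was called, 7 higher and 3 lower, where 49.4% of all tested genes were called in that comparison (24.7% higher and 24.6% lower). Dusp5, Etv4, Etv5, Spry2, Spry4, Dusp6 and Dusp1 rose there, and Dusp4, Spry1 and Spred1 fell. The median log2 fold change of the members was 0.89, against -0.02 over all tested genes, and the median size without sign was 1.10, against 0.37. In each of the 10 genes the 3 double-knockout libraries lay beyond the 3 control libraries after TMM scaling, a pattern that 59.7% of all tested genes met. The TMM factors differed by group, at 1.102 to 1.123 in double knockout and 0.89 to 0.9795 in control. Divided by library totals alone, the counts of Spred1 would not be lower in double knockout, and those of Spry1 would overlap control. The small falls of these genes thus depend on the scaling, and no fit was made without it.

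**Figure D1:**
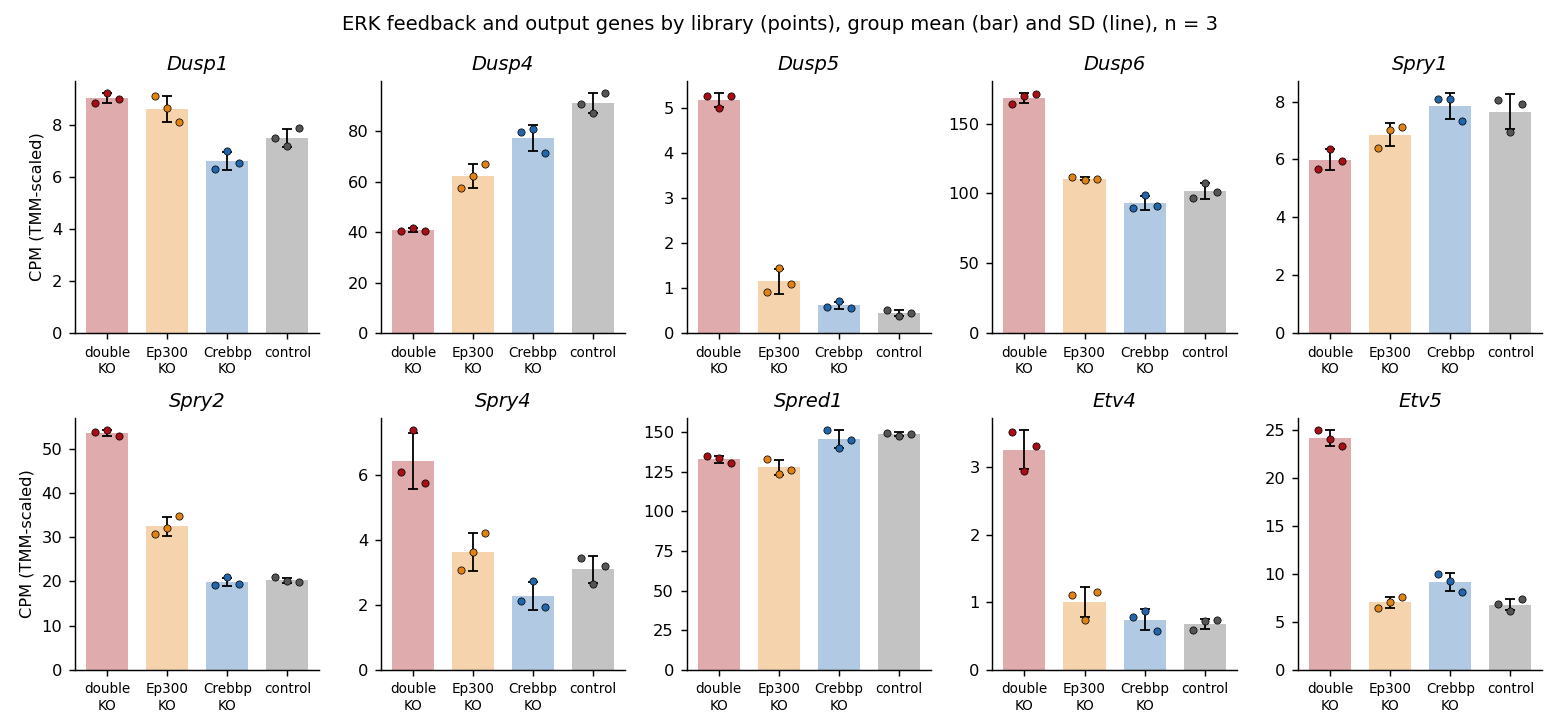
Each panel plots 1 gene in CPM, with a point per library, a bar for the group mean and a line for the SD (n = 3), and groups from left to right double knockout, Ep300 knockout, Crebbp knockout and control. Dusp5, Etv4 and Etv5 stood far higher in double knockout than in any other group. Dusp4 stepped up from double knockout at the left to control at the right, and Spred1 kept to a narrow range of 124 to 152 CPM.

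The phosphatases went in opposite directions. Dusp6 (ENSMUSG00000019960, GRCm38 chromosome 10, 99263231 to 99267489, plus strand) encodes a cytoplasmic phosphatase that is selective for ERK. It stood at 164, 169.5 and 171 CPM in double knockout, 111, 109.5 and 111 in Ep300 knockout, 89.7, 98.6 and 90.8 in Crebbp knockout and 96.5, 108 and 101 in control. The double-knockout libraries were all above the rest, those of Ep300 knockout lay just above control, and those of Crebbp knockout overlapped it. Dusp6 rose by 0.73 ± 0.06 in double knockout (adjusted p = 2.05e-07), while Ep300 knockout was at 0.12 ± 0.06 (adjusted p = 0.241) and Crebbp knockout at -0.13 ± 0.06 (adjusted p = 0.316).

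Dusp4 (ENSMUSG00000031530, chromosome 8, 34807297 to 34819894, plus strand), a nuclear phosphatase of ERK and other MAP kinases, stood at 40.3, 41.8 and 40.5 CPM in double knockout, 57.5, 62.5 and 67.1 in Ep300 knockout, 79.8, 80.8 and 71.2 in Crebbp knockout and 90.9, 87.2 and 95.2 in control. No group overlapped another. It fell by 1.16 ± 0.07 on the log2 scale in double knockout (adjusted p = 4.49e-09) and by 0.55 ± 0.07 in Ep300 knockout (adjusted p = 5.19e-05), and was at -0.24 ± 0.07 in Crebbp knockout (adjusted p = 0.0875). The last was called lower with DESeq2 (adjusted p = 0.0297) and with offsets for GC content and gene length (0.0177).

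Dusp5 (ENSMUSG00000034765, chromosome 19, 53529109 to 53542431, plus strand), a nuclear phosphatase selective for ERK, was scarce in control. It stood at 5.26, 5.01 and 5.27 CPM in double knockout, from 424 to 493 counts a library. Ep300 knockout had 0.903, 1.45 and 1.10 CPM, Crebbp knockout 0.584, 0.702 and 0.560, and control 0.521, 0.367 and 0.446, the last from 21 to 41 counts a library. The groups did not overlap. The rise was 11.5-fold in double knockout (log2 fold change 3.52 ± 0.19, adjusted p = 6.97e-10) and 2.56-fold in Ep300 knockout (1.36 ± 0.20, adjusted p = 0.000185), and Crebbp knockout was at 0.45 ± 0.22 (adjusted p = 0.309). An antisense gene annotated on the opposite strand, AC137853.2, shares 547 exonic bases with Dusp5, and without the strand setting of the counting, reads of the pair cannot be told apart.

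Dusp1 (ENSMUSG00000024190, chromosome 17, 26505590 to 26562128, minus strand), an immediate-early phosphatase that also acts on p38 and JNK, moved least of the phosphatases. It stood at 8.82, 9.21 and 9.00 CPM in double knockout, 9.09, 8.65 and 8.10 in Ep300 knockout, 6.31, 6.99 and 6.51 in Crebbp knockout and 7.48, 7.17 and 7.86 in control. Double knockout overlapped Ep300 knockout, both lay above control, and Crebbp knockout lay below it. The rise of 0.26 ± 0.08 in double knockout (adjusted p = 0.0136) was called, and the values of 0.20 ± 0.08 (adjusted p = 0.125) for Ep300 knockout and -0.19 ± 0.08 (adjusted p = 0.258) for Crebbp knockout were not. Without double-knockout replicate 2 the rise was 0.25 (adjusted p = 0.0508), and with offsets for GC content and gene length 0.18 (adjusted p = 0.0643).

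Per kilobase of exon, Dusp4 and Dusp6 together made up most of the summed level of the 4 phosphatases. Dusp6 took 73.1 ± 0.38% of that sum in double knockout, 57.8 ± 1.69% in Ep300 knockout, 49.4 ± 1.46% in Crebbp knockout, against 47.6 ± 2.21% in control (SD, n = 3 each). Dusp4 took 20.3 ± 0.35%, 37.2 ± 1.96%, 46.9 ± 1.60% and 48.8 ± 2.02% in the same order. The ratio of Dusp4 to Dusp6 was thus 0.28 ± 0.01 in double knockout, 0.65 ± 0.05 in Ep300 knockout and 0.95 ± 0.06 in Crebbp knockout, against 1.03 ± 0.09 in control. The sum itself stood at 73.5 ± 1.32 CPM per kilobase in double knockout, 61.1 ± 1.55 in Ep300 knockout and 60.2 ± 3.10 in Crebbp knockout, against 68.1 ± 1.54 in control. The sums of each knockout group lay outside the control range, and so did the ratios of double knockout and Ep300 knockout. A two-sided exact permutation test gave p = 0.1 for each of those 5, the smallest that 3 against 3 libraries allow, and p = 0.3 for the ratio in Crebbp knockout.

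**Figure D2:**
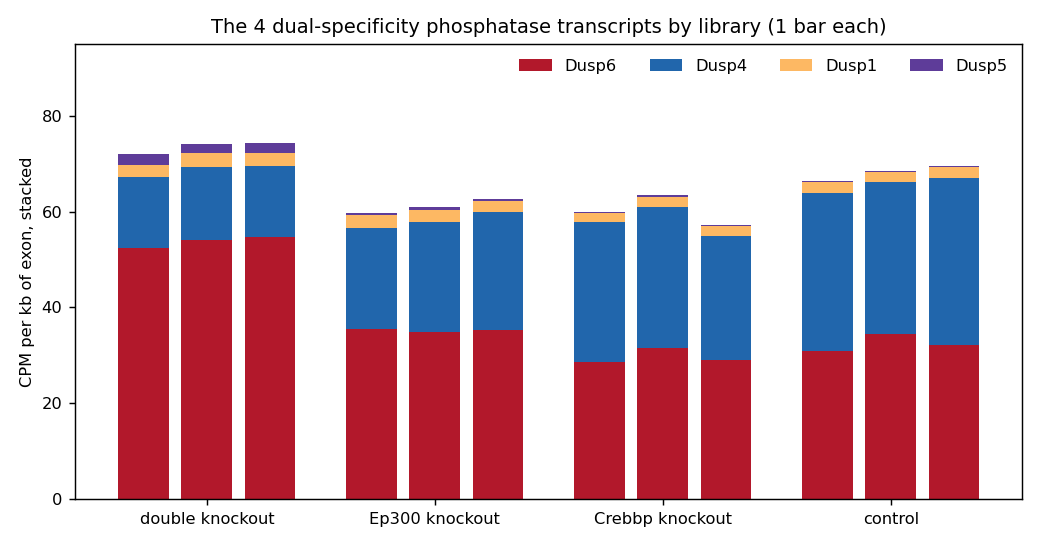
Stacked bars give the 4 phosphatase transcripts in CPM per kilobase of exon, 1 bar per library, with double knockout at the left, then Ep300 knockout, Crebbp knockout and control. The Dusp6 part grew and the Dusp4 part shrank in double knockout while the summed height kept between 57.2 and 74.3.

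The Sprouty genes divided too. Spry2 (ENSMUSG00000022114, chromosome 14, 105891947 to 105896819, minus strand), a feedback inhibitor of receptor tyrosine kinase signalling, stood at 53.9, 54.3 and 52.9 CPM in double knockout, 30.7, 32.1 and 34.9 in Ep300 knockout, 19.2, 21.0 and 19.5 in Crebbp knockout and 21.0, 20.1 and 19.9 in control. Double knockout lay above Ep300 knockout and Ep300 knockout above the other groups, which overlapped. Spry2 rose by 1.40 ± 0.07 in double knockout (adjusted p = 1.71e-10) and by 0.68 ± 0.07 in Ep300 knockout (adjusted p = 2.3e-06), and was at -0.03 ± 0.07 in Crebbp knockout (adjusted p = 0.85).

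Spry4 (ENSMUSG00000024427, chromosome 18, 38586247 to 38601415, minus strand), a Sprouty inhibitor of the same kind, was lower in level and more variable. It stood at 6.10, 7.39 and 5.75 CPM in double knockout, 3.06, 3.62 and 4.22 in Ep300 knockout, 2.10, 2.75 and 1.94 in Crebbp knockout and 3.44, 2.64 and 3.20 in control. The double-knockout libraries were above all others, and both single knockouts overlapped control. Spry4 rose by 1.05 ± 0.16 in double knockout (adjusted p = 6e-05), and was at 0.23 ± 0.16 (adjusted p = 0.411) for Ep300 knockout and -0.46 ± 0.17 (adjusted p = 0.162) for Crebbp knockout.

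Spry1 (ENSMUSG00000037211, chromosome 3, 37639947 to 37644598, plus strand), the third Sprouty gene, went down. It stood at 5.66, 6.37 and 5.96 CPM in double knockout, 6.41, 7.04 and 7.13 in Ep300 knockout, 8.10, 8.11 and 7.31 in Crebbp knockout and 8.06, 6.96 and 7.93 in control. After TMM scaling, double knockout lay below control, and both single knockouts overlapped it. Spry1 fell by 0.35 ± 0.09 on the log2 scale in double knockout (adjusted p = 0.00479), with -0.16 ± 0.09 (adjusted p = 0.297) for Ep300 knockout and 0.03 ± 0.09 (adjusted p = 0.881) for Crebbp knockout. The opposite-strand gene Gm42922, which shares 710 exonic bases with it, had 1 to 7 counts a library, beside 398 to 635 for Spry1.

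Spred1 (ENSMUSG00000027351, chromosome 2, 117121374 to 117182279, plus strand), which brings the RAS inhibitor neurofibromin to the membrane, stood at 135, 133 and 131 CPM in double knockout, 133, 124 and 126 in Ep300 knockout, 152, 140.0 and 145 in Crebbp knockout and 149.7, 147 and 149 in control. After TMM scaling, double knockout and Ep300 knockout lay below control without overlap. The falls were the smallest called, -0.16 ± 0.06 in double knockout (adjusted p = 0.0364) and -0.22 ± 0.06 in Ep300 knockout (adjusted p = 0.0195), and Crebbp knockout was at -0.03 ± 0.06 (adjusted p = 0.829). The call in double knockout ended without any 1 control library (adjusted p = 0.0875, 0.0514 and 0.0787 without replicates 1, 2 and 3), without any 1 double-knockout library (0.0756, 0.0924 and 0.119), and with no filter on low counts (0.216). The call in Ep300 knockout ended without control replicate 1 (0.0631) or 3 (0.0596), without Ep300-knockout replicate 2 (0.0896), in the fit restricted to these groups (0.0893), and with no filter (0.0968).

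Both ETS factors rose in the libraries labelled double knockout. Etv5 (ENSMUSG00000013089, chromosome 16, 22381309 to 22439719, minus strand) stood at 25.0, 24.1 and 23.4 CPM in double knockout, 6.43, 7.10 and 7.60 in Ep300 knockout, 10.0, 9.29 and 8.15 in Crebbp knockout and 6.91, 6.14 and 7.35 in control. Crebbp knockout lay above control and Ep300 knockout overlapped it, an order unlike that of Spry2 and Dusp5. Etv5 rose 3.54-fold in double knockout (1.83 ± 0.10, adjusted p = 5.89e-10) and 1.34-fold in Crebbp knockout (0.43 ± 0.10, adjusted p = 0.0288), and was at 0.05 ± 0.10 in Ep300 knockout (adjusted p = 0.808). It was the 1 member called in Crebbp knockout, where 3.13% of all tested genes were (1.52% higher and 1.61% lower). That call ended without control replicate 1 (adjusted p = 0.071) or 2 (0.0821), without replicate 1 (0.115) or 2 (0.0982) of Crebbp knockout, and in the fit restricted to these groups (0.0975).

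Etv4 (ENSMUSG00000017724, chromosome 11, 101769742 to 101785371, minus strand) stood at 3.52, 2.94 and 3.31 CPM in double knockout, 1.11, 0.739 and 1.14 in Ep300 knockout, 0.787, 0.866 and 0.575 in Crebbp knockout and 0.584, 0.717 and 0.729 in control. The double-knockout libraries were above all others, and Ep300 knockout lay just above control. Etv4 rose 4.82-fold in double knockout (2.27 ± 0.20, adjusted p = 2.07e-07). Ep300 knockout was at 0.56 ± 0.21 (adjusted p = 0.0904), called at 0.74 (adjusted p = 0.0285) without its replicate 2, and Crebbp knockout at 0.14 ± 0.22 (adjusted p = 0.777).

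**Figure D3:**
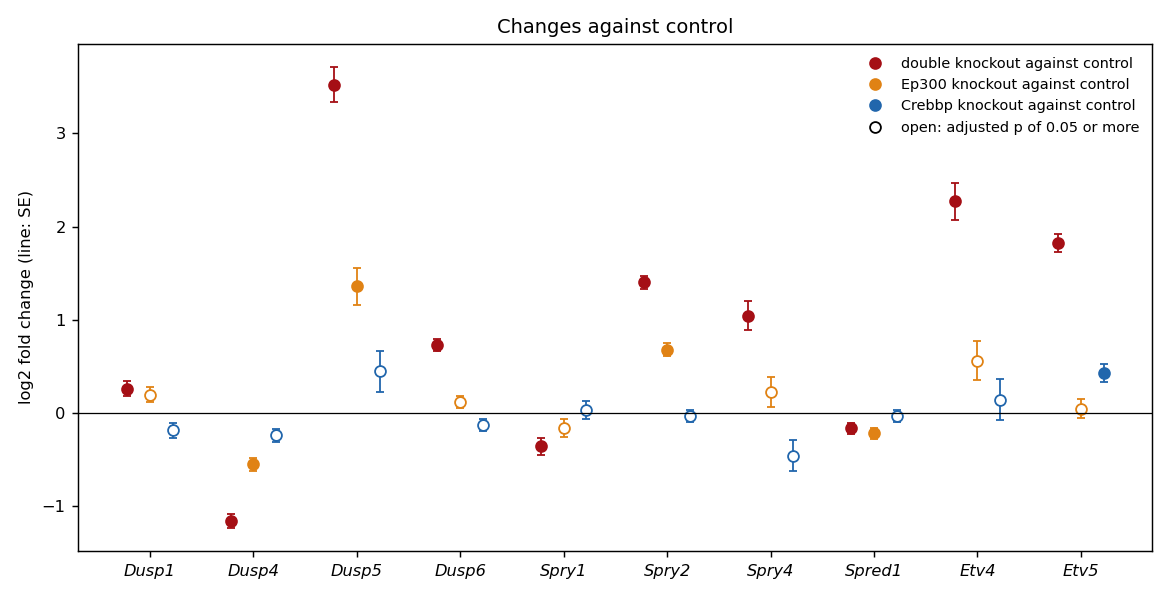
Log2 fold changes against control of the 10 genes, with lines for the SE and open circles where the adjusted p was 0.05 or more, in red for double knockout, orange for Ep300 knockout and blue for Crebbp knockout. Red points lie farthest from 0 in all genes but Spred1, and blue points lie within 0.46 of 0.

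In Ep300 knockout 4 of the 10 members were called, Dusp5 and Spry2 higher and Dusp4 and Spred1 lower, where 16.1% of all tested genes were called (7.27% higher and 8.83% lower). The libraries of 7 members did not overlap control, as for 28.4% of all tested genes. The members' median log2 fold change was 0.16, against 0.01 over all tested genes. In Crebbp knockout the median was -0.03, against -0.01, and 4 members did not overlap control, as for 20.5% of all tested genes. The 3 comparisons share the control libraries, so their values are not independent of each other. Between the single knockouts, Ep300 knockout was higher than Crebbp knockout in Dusp1, Dusp5, Dusp6, Spry2 and Spry4 and lower in Dusp4, Spred1 and Etv5, where 13.6% of all tested genes were called (6.26% higher and 7.37% lower). The groups did not overlap in 9 members and in 27.1% of all tested genes. Spry2 had the largest such difference relative to its error, at 0.71 ± 0.07 (adjusted p = 1.99e-06), and Etv5 went the other way at -0.38 ± 0.10 (adjusted p = 0.0162). The adjusted p was 0.203 for Spry1 and 0.224 for Etv4. Among these 8 calls 4 ended when a library was left out. Dusp6 (0.0841) and Spry4 (0.0508) were not called without Crebbp-knockout replicate 1. Etv5 was not called without Ep300-knockout replicate 1 (0.0661) or Crebbp-knockout replicate 1 (0.0866) or 2 (0.0539). Spred1, at 0.0489 with all libraries, was not called without control replicate 1 (0.0665) or 3 (0.0761), without Ep300-knockout replicate 2 (0.18) or 3 (0.0831), without any 1 Crebbp-knockout library (0.196, 0.0663 and 0.0803) or without any 1 double-knockout library (0.0795, 0.075 and 0.0757).

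Set against each single knockout, the libraries labelled double knockout differed from Ep300 knockout in 7 members, 6 higher and 1 lower, where 34.6% of all tested genes were called (18.0% higher and 16.6% lower). The groups did not overlap in 8 members and in 47.4% of all tested genes. Etv5 (1.78 ± 0.10), Dusp5 (2.16 ± 0.17), Etv4 (1.71 ± 0.19), Spry2 (0.72 ± 0.07), Dusp6 (0.61 ± 0.06) and Spry4 (0.82 ± 0.15) were higher and Dusp4 (-0.61 ± 0.07) was lower, with adjusted p from 4.81e-09 for Etv5 to 0.00102 for Spry4. Dusp1, Spry1 and Spred1 were not called. Against Crebbp knockout 9 members differed, 7 higher and 2 lower, where 43.2% were called (21.4% higher and 21.8% lower), and all 10 did not overlap, as for 56.5% of all tested genes. Dusp1 (0.45 ± 0.08, adjusted p = 0.000411) joined the higher ones and Spry1 (-0.39 ± 0.09, adjusted p = 0.00313) the lower ones, and Spred1 was at -0.13 ± 0.06 (adjusted p = 0.0916).

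Whether the change in double knockout exceeded those of both single knockouts added up was tested as the double-knockout log2 change minus the sum of the single-knockout changes. Of the 10 members 6 exceeded the sum and 1 fell below it, where 10.3% of all tested genes departed from it (5.33% above and 4.96% below). The median departure of the members was 0.74, against 0.00 over all tested genes. For Dusp6 the single changes summed to -0.01 and the double change was 0.73, a departure of 0.73 ± 0.09 (adjusted p = 0.0001). For Etv5 the sum was 0.48 and the double change 1.83, a departure of 1.35 ± 0.14 (adjusted p = 2.05e-05). For Spry4 the sum was -0.23 and the double change 1.05, a departure of 1.28 ± 0.23 (adjusted p = 0.00237). Of the single changes of these 3 genes, that of Etv5 in Crebbp knockout was the one called.

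Dusp5 (sum 1.81, departure 1.71 ± 0.28, adjusted p = 0.00114), Etv4 (sum 0.70, departure 1.57 ± 0.29, adjusted p = 0.00306) and Spry2 (sum 0.65, departure 0.75 ± 0.09, adjusted p = 0.000125) likewise rose beyond their sums. Dusp4 fell beyond its sum of -0.78 by a further -0.37 ± 0.10 (adjusted p = 0.0299). That last call ended without control replicate 1 (adjusted p = 0.0672), Ep300-knockout replicate 2 (0.0715), Crebbp-knockout replicate 1 (0.0657) or 2 (0.0701), or any 1 double-knockout library (0.0759, 0.0601 and 0.0731). Dusp1 (0.25 ± 0.12, adjusted p = 0.182), Spry1 (-0.23 ± 0.13, adjusted p = 0.289) and Spred1 (0.09 ± 0.08, adjusted p = 0.557) were not called.

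**Figure D4:**
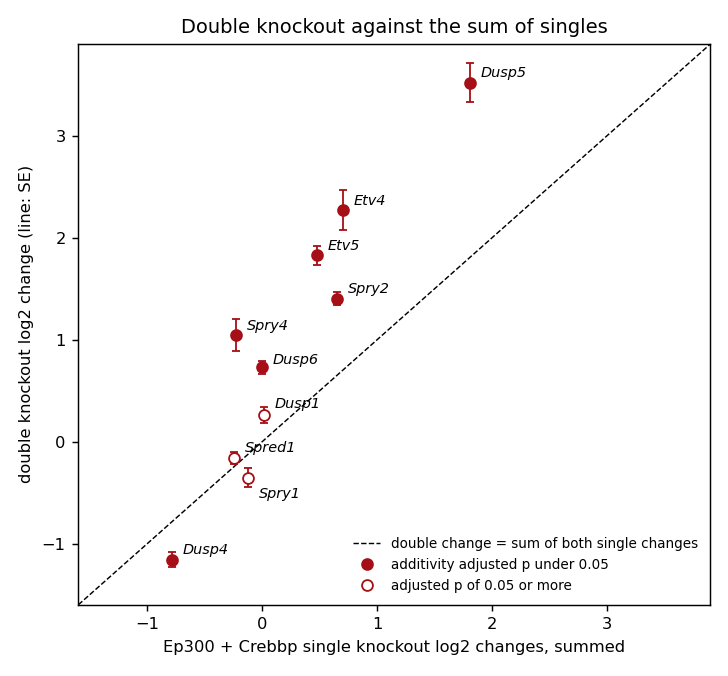
The double-knockout log2 change of each gene (vertical, line for the SE) is plotted against the single-knockout changes added together (horizontal), with a dashed line where the values are equal and filled points where the departure was called. The axes share the control libraries. Of the called genes 6 lie above the line and Dusp4 lies below it.

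Levels between genes were compared per kilobase of exon. In control, Dusp4 (33.2 ± 1.45 CPM per kilobase) and Dusp6 (32.4 ± 1.80) were highest, then Spred1 (21.9 ± 0.18) and Spry2 (9.73 ± 0.28), with Etv4 (0.22 ± 0.03) and Dusp5 (0.18 ± 0.03) lowest. In double knockout the order was Dusp6 (53.7 ± 1.16), Spry2 (25.7 ± 0.34), Spred1 (19.6 ± 0.32) and Dusp4 (14.9 ± 0.28), and Etv4 (1.05 ± 0.09) was lowest. The Ep300 knockout had Dusp6 at 35.3 ± 0.31 and Dusp4 at 22.8 ± 1.77, and the Crebbp knockout 29.7 ± 1.54 and 28.2 ± 1.93. Across the 4 groups, neighbours in the order of levels were called different in all 3 steps for no member. Dusp4, Dusp5, Spry2 and Etv5 had 2 called steps, Dusp6, Spry4 and Etv4 had 1, between double knockout and the next group, and Dusp1, Spry1 and Spred1 had none. The order came from these same means. The share of all tested genes with such steps was not computed, so these counts only describe the members.

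Genes with the most similar course were ranked by the root-mean-square difference of centred log2 CPM over the 12 libraries, among 9565 genes of at least 5 CPM, as a description. Dusp6 was closest to Dusp10 (0.07), another MAP kinase phosphatase, then to Cyld, a deubiquitinase (0.07), and Klf10 (0.08), where the median gene lay at 0.36. Spry2 was closest to Tdrd7, Ehd4 and Tmem63a (0.07 to 0.08), Dusp4 to Pde11a, Tmem189 and Rapgef4 (0.06 to 0.07), and Dusp1 to Kat2b, an acetyltransferase (0.06), Rasal3 and Filip1l. Spry1 was closest to Canx, Dcps and Slc20a1, and Spred1 to Ythdf3 and Zfp148, all at 0.06 or less. Etv5 was closest to Peg10 (0.10), with Cd274, which encodes PD-L1, and Plk2 next at 0.25 and 0.26. The nearest other member was farther off than these in every case, at 0.14 for Spred1 and Spry1, which were each other's nearest, and 0.37 from Etv5 to Etv4.

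The rest of the pathway was read from 8 lists, also chosen with earlier results known. Of all tested genes, 24.7% were called higher and 24.6% lower in double knockout, 7.27% and 8.83% in Ep300 knockout, and 1.52% and 1.61% in Crebbp knockout. In the libraries labelled double knockout, 13 of 15 immediate-early genes rose and 1 fell (median log2 fold change 2.02, against -0.02 over all tested genes). Egr1, an ERK-induced zinc-finger factor, stood at 102 ± 1.73 CPM in double knockout, 17.2 ± 2.83 in Ep300 knockout, 7.19 ± 0.54 in Crebbp knockout, against 3.21 ± 0.40 in control. Its log2 fold changes were 4.98 ± 0.12 (adjusted p = 1.21e-13), 2.42 ± 0.12 (8.95e-10) and 1.16 ± 0.12 (9.92e-05). Atf3 rose by 2.13 ± 0.07 in double knockout and Junb by 2.08 ± 0.09. In Ep300 knockout 9 of 15 rose and 2 fell (median 0.53), with Junb at 0.68 ± 0.09 and Btg2 at 0.75 ± 0.07, and in Crebbp knockout 1 rose and 1 fell. Of the 15, 13 were called above the sum of the single changes, where 5.33% of all tested genes were.

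Among other brakes on RAS and ERK, 13 of 20 measured genes rose in double knockout and 3 fell (median 0.59), where 49.4% of all tested genes were called. In Ep300 knockout 5 rose and 3 fell (0.12), where 16.1% were called, and in Crebbp knockout 1 fell (0.01). Errfi1, an inhibitor of EGF receptor kinases, stood at 70.2 ± 1.65 CPM in double knockout, 23.6 ± 0.55 in Ep300 knockout, 14.6 ± 0.67 in Crebbp knockout, against 14.7 ± 0.21 in control, a log2 fold change of 2.25 ± 0.06 in double knockout (adjusted p = 3.1e-13) and 0.68 ± 0.06 in Ep300 knockout (adjusted p = 8.68e-07). The phosphatase Dusp14 rose by 1.76 ± 0.10 and 1.15 ± 0.10 in the same comparisons, and Pea15a, which holds ERK in the cytoplasm, by 0.56 ± 0.06 in Ep300 knockout. Rasa3, a RAS GTPase-activating protein, fell by 0.94 ± 0.06 on the log2 scale in double knockout. Dusp2, another MAP kinase phosphatase, was higher in double knockout (0.71 ± 0.09, adjusted p = 6.64e-06) and lower in Ep300 knockout (-0.75 ± 0.09, adjusted p = 2.12e-05), and departed from the sum of the single changes by 1.81 ± 0.125 (adjusted p = 5.22e-07). Its fall in Crebbp knockout (-0.35 ± 0.09, adjusted p = 0.0429) ended in 12 of 20 alternatives, among them without each control, without each double-knockout library, without Ep300-knockout replicate 2 and without Crebbp-knockout replicate 1 or 2, at adjusted p from 0.0553 to 0.163.

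Other ERK outputs were mixed, with 7 of 14 higher and 5 lower in double knockout (median 0.50), 5 and 3 in Ep300 knockout (0.06) and 1 and 2 in Crebbp knockout (-0.09). The shares of all tested genes called in these comparisons were 49.4%, 16.1% and 3.13%. Etv1, the third PEA3 factor, stood at 20.04 ± 0.80 CPM in double knockout, 9.94 ± 0.59 in Ep300 knockout, 12.1 ± 0.72 in Crebbp knockout, against 9.90 ± 0.44 in control, and rose in double knockout by 1.02 ± 0.08 (adjusted p = 4.07e-08). Il11, a cytokine, rose in double knockout by 6.41 ± 0.14, by 3.93 ± 0.14 in Ep300 knockout and by 1.95 ± 0.15 in Crebbp knockout. Plaur, the urokinase receptor, rose by 0.46 ± 0.08 in Ep300 knockout and by 0.75 ± 0.08 in double knockout. Myc fell on the log2 scale by 0.49 ± 0.08 in Ep300 knockout and by 0.66 ± 0.08 in double knockout. The others called lower in double knockout were Phlda1, Epha4, Mcl1 and Emp1. Hmga2, a chromatin protein, rose by 0.73 ± 0.06 in double knockout and was at -0.26 ± 0.06 in Crebbp knockout (adjusted p = 0.0275), a call that ended in 8 of 20 alternatives, among them without control libraries 1 (0.0538), 2 (0.0572) or 3 (0.1), Crebbp-knockout replicate 1 (0.09) or 3 (0.0685), or double-knockout replicate 1 (0.0521). Ccnd1, which encodes cyclin D1, fell by 0.38 ± 0.07 on the log2 scale in Crebbp knockout (adjusted p = 0.0124, and 0.0507 in the restricted fit).

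Upstream, 8 of 11 tested growth factor ligands rose in double knockout and 1 fell (median 1.29), and 3 rose in Ep300 knockout (0.27). Most that rose in double knockout were scarce. Tgfa (0.96), Fgf2 (0.49), Pdgfc (0.30), Btc (0.27) and Pdgfb (0.26) averaged under 1 CPM over the 12 libraries. The median of 1.29 was the value of Fgf2. Over all tested genes, 24.7% were higher and 24.6% lower in double knockout, and 7.27% and 8.83% in Ep300 knockout. Hbegf, a ligand of the EGF receptor, stood at 15.4 ± 0.80 CPM in double knockout, 5.32 ± 0.11 in Ep300 knockout, 2.86 ± 0.55 in Crebbp knockout, against 2.56 ± 0.15 in control, at 2.59 ± 0.12 in double knockout (adjusted p = 9.57e-11) and 1.06 ± 0.12 in Ep300 knockout (adjusted p = 1.02e-05). Pdgfa rose by 0.66 ± 0.10 and 0.42 ± 0.10 in these comparisons, and Kitl, the ligand of KIT, by 0.36 ± 0.09 in double knockout. The receptors divided, with 5 of 12 higher and 5 lower in double knockout and 3 and 4 in Ep300 knockout. Egfr, which encodes the EGF receptor, did not pass the filter, at a mean of 0.0015 CPM over the 12 libraries. Axl reached 171 ± 5.07 CPM in double knockout, 50.3 ± 6.28 in Ep300 knockout and 13.0 ± 1.83 in Crebbp knockout, against 6.85 ± 0.19 in control. Epha2 rose by 3.78 ± 0.09 in double knockout and 3.37 ± 0.09 in Ep300 knockout, where Kit was lower, at -2.58 ± 0.105 in double knockout and -3.24 ± 0.11 in Ep300 knockout.

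The list of RAS GTPases and the RAF, MEK and ERK kinases also held Shoc2, Ksr1, Rps6ka1, Rps6ka2 and Rps6ka3. Of its 18 genes, 9 rose and 4 fell in double knockout (median 0.16), and 1 rose in Ep300 knockout. Shoc2 and Rps6ka1 were among those that rose in double knockout, and Rps6ka3 among those that fell. In Crebbp knockout 0 were called by edgeR, DESeq2 or limma-voom, with 0 at an unadjusted p under 0.05 in edgeR. Among all tested genes, 24.7% were higher and 24.6% lower in double knockout, 16.1% were called in Ep300 knockout and 3.13% in Crebbp knockout. Rras rose by 1.43 ± 0.09 in double knockout and 0.65 ± 0.09 in Ep300 knockout, and Rras2 by 0.54 ± 0.08 in double knockout. Of 13 adaptors and exchange factors, 8 rose and 2 fell in double knockout (median 0.25), and 1 fell in each single knockout. Rasgrp3, a RAS exchange factor of melanocytic cells, stood at 15.8 ± 1.68 CPM in double knockout, 40.1 ± 2.51 in Ep300 knockout, 59.6 ± 5.32 in Crebbp knockout, against 79.5 ± 3.95 in control. Its log2 fold changes were -2.33 ± 0.09, -0.99 ± 0.09 and -0.41 ± 0.09 in the 3 knockouts, the last at adjusted p = 0.0179 (0.0576 without control replicate 1 and 0.0794 without control replicate 3). Crkl and Ptpn11, which encodes the phosphatase SHP2, rose in double knockout by 0.73 ± 0.08 and 0.52 ± 0.07.

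Of 14 ETS and SRF factors, 9 rose and 1 fell in double knockout (median 0.34), where 24.7% of all tested genes were higher and 24.6% lower. In Ep300 knockout 3 rose and 1 fell (0.13), where 16.1% were called, and in Crebbp knockout 1 rose (0.12). Ets1 was the one that fell, at -0.84 ± 0.08 in double knockout and -0.60 ± 0.08 in Ep300 knockout. Elk1 rose by 0.70 ± 0.07 in double knockout, and Atxn1l, a partner of Capicua, by 0.67 ± 0.08. In Crebbp knockout Elk1 was at 0.28 ± 0.07 (adjusted p = 0.0339), a call that ended in 10 of 20 alternatives, among them without control libraries 1 (0.0627), 2 (0.0901) or 3 (0.0878), Crebbp-knockout replicate 1 (0.109) or 2 (0.115), or double-knockout replicate 1 (0.0518) or 3 (0.057). In Ep300 knockout Srf rose by 0.32 ± 0.09 (adjusted p = 0.0255) and Etv6 by 0.34 ± 0.09 (adjusted p = 0.0228). The call on Srf ended without control replicate 1 (0.0813) or 2 (0.0646), without Ep300-knockout replicate 2 (0.0575) or 3 (0.115), in the restricted fit (0.0792) and with the offsets (0.051), and the value was 0.21 with the offsets and 0.21 without Ep300-knockout replicate 3. The call on Etv6 ended without control replicate 2 (0.0841), without Ep300-knockout replicate 3 (0.103) and in the restricted fit (0.0674).

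**Figure D5:**
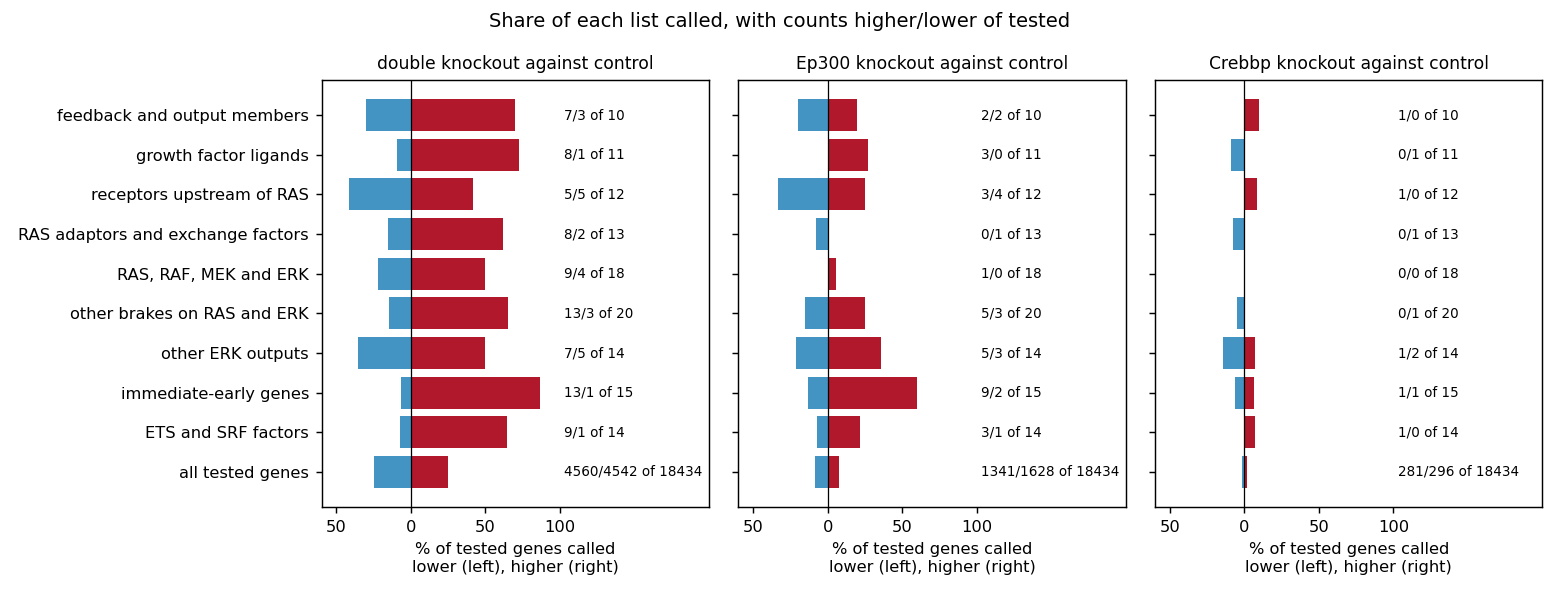
For each list and for all tested genes, bars give the percent of tested genes called lower (blue, to the left) and higher (red, to the right) than control, with the counts beside them, in double knockout, Ep300 knockout and Crebbp knockout from left to right. In double knockout 13 of 15 immediate-early genes and 7 of the 10 members were higher, beside 4560 of 18434 tested genes.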

How the data were processed

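Polyadenylated RNA of 12 B16F10 libraries was sequenced with a stranded kit, per the labels. The authors used bcl2fastq, HISAT2 and HTSeq on build mm10, per the submitters' processing notes, and deposited a table of raw counts per Ensembl gene with no normalization. Neither versions nor the strand setting nor the annotation is given in the sources used here. All 12 columns were used. GENCODE M21 (GRCm38) gave symbols, positions and exon lengths for 54723 of 54752 genes.

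Genes were filtered with filterByExpr (18434 kept), scaled by TMM and fitted with the robust edgeR quasi-likelihood F test on all 12 libraries, with group as the only term. Contrasts were the 6 pairs of groups and the additivity term. Benjamini-Hochberg adjustment ran over all tested genes of a comparison, with a threshold of 0.05. SE were derived from the F statistic. The tools were edgeR 4.0.16, DESeq2 1.42.0, limma 3.58.1 and mgcv 1.9.3 under R 4.3.3. On simulated counts for the comparison of double knockout with control over 18434 genes, the fit recovered 54 of 100 genes changed 1.5-fold and 91 of 100 changed 2-fold, and called 6 unchanged genes. Only these genes were changed, up and down alike, with the same spread for every gene. In the data 49.4% of tested genes were called in that comparison, so the simulated rates may not carry over.

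The members and lists were chosen with earlier results of these data known. Genes of the lists were named where they had at least 5 CPM and were among the 3 smallest adjusted p-values of their list under 0.05 in a knockout against control. Genes and values given beyond this rule were chosen after their values were seen. Spry3 was not analysed here. Some genes that the naming rules select are not reported here. The results were recomputed with limma-voom, DESeq2, RLE size factors, other filters, only the groups compared, a replicate block, offsets per library for gene length and GC content, and leaving out each library. Depth was 64257251 to 85604243 counts a library. Replicates of a group differed by more than counting error (chi-square per degree of freedom 10.9 to 98.7).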

Additional observations from a re-analysis of the deposited data

Results flagged for a closer look

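The log2 change of double knockout against Crebbp knockout differed from that of Ep300 knockout against control in 7 of the 10 genes, by the additivity term of the edgeR fit, where 10.3% of all tested genes were called. The difference was 1.71 for Dusp5 (adjusted p = 0.00114), 1.57 for Etv4 (0.00306), 1.35 for Etv5 (2.05e-05), 1.28 for Spry4 (0.00237), 0.75 for Spry2 (0.000125), 0.73 for Dusp6 (0.0001) and -0.37 for Dusp4 (0.0299). The call on Dusp4 ended in 8 of 19 alternatives, and those on the other 6 genes held in all 19.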

How the results depend on the processing

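Over the members and 7 comparisons, 46 results were called, and 863 of their 913 values under the alternatives stayed called in the same direction. The other 50 were no longer called, and none changed sign. Members called ranged over the left-out libraries from 8 to 10 in double knockout against control, 3 to 4 in Ep300 knockout, 0 to 1 in Crebbp knockout, 4 to 8 between the single knockouts and 6 to 7 for additivity, and stayed at 7 and 9 for double knockout against Ep300 and Crebbp knockout. Without Crebbp-knockout replicate 1 the count between the single knockouts was 4, and with only the groups compared 5. In Crebbp knockout the count was 2 with DESeq2, with no filter and with the offsets, and 0 with only the groups compared. The added member was Dusp4 with DESeq2 and with the offsets, and Spry4 with no filter.

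Over all tested genes, 577 were called in Crebbp knockout. This was 1279 with DESeq2, 1270 with no filter, 1058 with the offsets, 257 with only the groups compared and 214 to 774 over left-out libraries (365 and 246 without control replicates 1 and 3, 299 and 214 without Crebbp-knockout replicates 1 and 2). The 1897 calls for additivity ranged over left-out libraries from 1119 without double-knockout replicate 2 to 2861 without control replicate 2, with 1197 and 1128 without control replicates 1 and 3 and 1143 without Ep300-knockout replicate 2.

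Deviations from the group means correlated at -0.17 to 0.107 over 18 same-numbered pairs of libraries. Pairs with different numbers were not examined, so these values cannot show whether replicate numbers share a deviation. With the replicate number as a block, members called were 0 in Crebbp knockout, and all genes called there 321. The block also ended the calls on Etv5 in Crebbp knockout (adjusted p = 0.0702), Spred1 in double knockout (0.056) and between single knockouts (0.0846), and Dusp4 for additivity (0.0681).

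Values near 0 that were not called changed sign. With the offsets these were Spry2 (0.037) and Spred1 (0.0078) in Crebbp knockout, Dusp1 (-0.0030) and Spred1 (-0.0027) in double knockout against Ep300 knockout, and Spred1 (-0.011) for additivity. Over left-out libraries, Etv5 in Ep300 knockout ranged from -0.016 (without control replicate 2) to 0.11, Spry1 in Crebbp knockout from -0.028 (without control replicate 2) to 0.077, and Crebbp in double knockout from -0.10 to 0.062 (without double-knockout replicate 3). Where no cause is given, the cause was not tested. At 21 to 41 counts a library, Dusp5 in control had the lowest mean count of any member, and Dusp5 in Ep300 knockout the largest spread relative to its mean, with an SD of 24.3% of it.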
